A study of Mus musculus with 9 samples.

Results

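Nasal mucosa of mice given papain was compared with nasal mucosa of mice given papain and exosomes of mesenchymal stromal cells (MSC-Exos), as 3 libraries against 3 of the 9 in the study. The sides were taken from the sample titles and treatment labels, and the 3 libraries of animals with no treatment were on neither side and serve below as a background. All animals were wild type (labelled WT). Intranasal papain was dosed at 20 µg per 20 µl on days 0 to 2 and again on days 7 to 11. MSC-Exos or PBS were given into the nose on days 7 to 11, and the tissue was taken on day 12. The strain, the age and the exosome dose were not stated in the labels. Whether the 3 libraries of a group are 3 mice is not stated either, and the p-values below speak of the spread among libraries, which can be technical only.

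Papain is a plant cysteine protease that damages epithelium and acts as an allergen, and repeated dosing of the nose is used as a model of eosinophilic chronic rhinosinusitis. In type 2 inflammation, epithelial alarmins such as IL-33 drive lymphoid cells to make IL-4, IL-5 and IL-13. These cytokines signal through STAT6, turn macrophages to an alternatively activated state, draw eosinophils with eotaxins and push the epithelium toward mucus and barrier repair. The nasal cavity of the mouse also holds the olfactory epithelium, whose sensory neurons each express an odorant receptor, and glands that secrete odorant-binding proteins in very large amounts. Mesenchymal stromal cell exosomes are small vesicles studied as a cell-free means of damping inflammation.

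The unit is FPKM, in which the fragments of a gene are divided by its transcript length and by the total of the library. Of 21930 genes in the deposited table, 12526 reached at least 1 in at least 3 of the 6 libraries after the libraries were brought to a common scale, and 12639 did so as deposited. The common scale, called scaled below, sets the median ratio of each library to the geometric mean of all 6 at 1. Changes are log2 differences of (value + 1), exosomes plus papain minus papain alone, with the standard error (SE), and a gene counts as higher or lower where limma gave a Benjamini-Hochberg adjusted p under 0.05. The pseudocount understates the change of low genes.

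Products of nasal glands and genes of olfactory neurons, which mark this tissue, were abundant in every library, and a few secretory genes set the scale of the whole table. The odorant-binding lipocalins, major urinary proteins and BPI fold-containing proteins, which carry odorants and pheromones or coat the mucosa, took 34.8%, 38.4% and 35.3% of the summed FPKM in the papain libraries and 25.3%, 27.6% and 35.7% with exosomes. The means were 36.2% ± 1.99 and 29.5% ± 5.42 (SD, n = 3 each), and 42.2% ± 1.7 without treatment. The difference was smaller than could be told from the spread (exact permutation test, two-sided, p = 0.3, with 0.1 the smallest that 3 against 3 allows). Over the 15 genes of highest mean FPKM the share was 70.3% ± 6.54 with papain and 50.1% ± 13.2 with exosomes, with no overlap between the groups (exact permutation p = 0.1, the smallest possible). Exosome library 3 (64.7%) lay close to papain library 1 (65.3%), and papain library 2 (77.7%) lay among the untreated libraries.

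**Figure D1:**
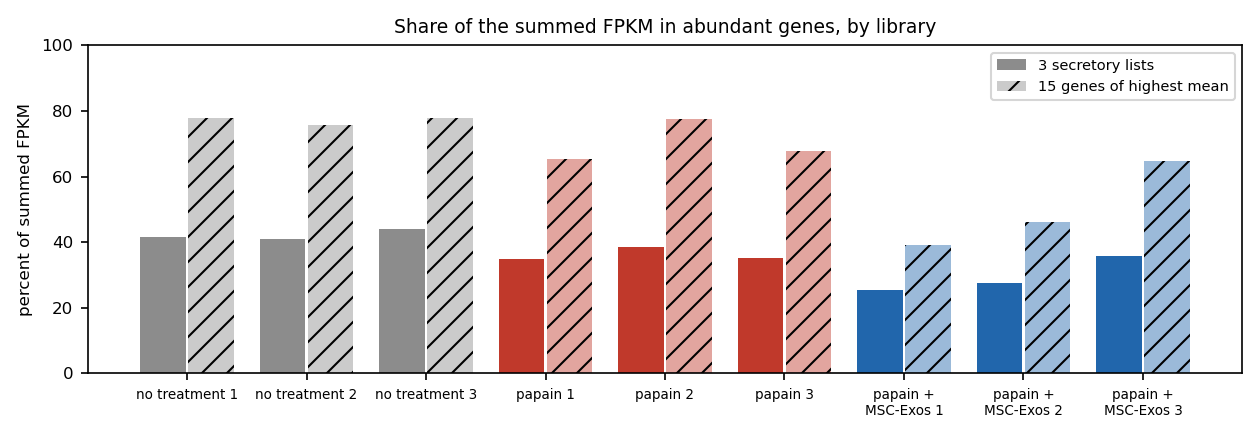
Percent of the summed FPKM (vertical axis) taken in each of the 9 libraries by the 3 secretory lists (solid bars) and by the 15 genes of highest mean FPKM (hatched bars). The hatched bars fall to 39.1% and 46.3% in exosome libraries 1 and 2 and stand at 64.7% in exosome library 3.

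Most other genes were higher as deposited, where the median gene was 0.56 higher on the log2 scale with exosomes, against -0.00 after scaling. All directions below are relative to that median gene unless a deposited value is named, and rescaling instead to a common sum outside the 3 secretory lists, called the common sum below, would put the median gene 0.75 higher. The common sum still holds very abundant genes that are in none of these lists, such as Gm14744 and Gm6619 (means of 68600 and 40500 FPKM over the 6 libraries). It too can therefore move with a few genes. On the scaled values 1290 genes were higher with exosomes (10.3% of those tested) and 1592 were lower (12.7%). The deposited values gave 6522 higher (51.6%) and 90 lower (0.712%). Genes that passed in the same direction on both scales numbered 1290 for rises (10.4%) and 64 for falls (0.514%). As deposited 95% of tested genes had a change above 0, so passing on both scales asks little more of a rise than passing on the scaled values. No gene was called in opposite directions on the 2 scales. Groups without overlap were common on the scaled values. Of the 12526 genes tested, 2646 had every exosome library above every papain library, and 2956 had every exosome library below. Statements below that groups did not overlap are to be read beside these counts. Counts of scaled calls leaned on single libraries: without papain library 2 they fell to 526 higher and 713 lower, without papain library 3 to 2 and 16, without exosome library 1 to 16 and 66, and without exosome library 2 to 1 and 21. A gene under 1 FPKM in every library of a group drops under the filter once a library of the other group is left out, and then has no value. Such a gene passed the filter through the other group alone, which favours a call toward that group, so its call is a description. On the scaled values this holds among the falls below for Retnla, Ccl11, Ccl24, Areg, Il1rl1, Mcpt1, Mcpt2, Gsdmc2, Tac1, Calca and Ciart. With the untreated libraries added to the fit the lowest counts on leaving out 1 library were 692 higher and 1055 lower, without exosome library 1. That fit takes part of its spread from libraries on neither side, which were kept out of the main fit because they varied less in earlier results. Mcpt1, for example, was listed at 0 in each of them. Calls that hold only in that fit can rest on this smaller spread.

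The groups also differed by the base composition of the transcripts. In the eighth of genes lowest in GC content, at most 41.9%, 29 genes were higher and 491 lower (median log2 change -0.25), and in the eighth highest in GC content, from 57.2%, 348 were higher and 49 lower (median 0.17). Across 12519 genes the Spearman correlation of the log2 change with GC content was 0.425, and with transcript length 0.188, as a description over genes, which are not independent replicates. Each of the 3 papain libraries lay on the other side of each of the 3 exosome libraries in the lowest and highest GC eighths, so base composition and treatment cannot be told apart by library. With the smooth trend on GC content and length removed from every library, 545 genes were higher and 604 lower, and 934 of the 2882 scaled calls remained, none of them reversed. Of the 64 genes lower on both scales 50 remained lower, and of the 1290 higher on both scales 426 remained higher. The adjustment was chosen after seeing the data. Counts of the gene lists below are on the scaled values unless another scale is named, and are followed by the counts after this adjustment and as deposited. They are to be read beside the shares of all genes tested. These were 10.3% higher and 12.7% lower on the scaled values, and 51.6% higher and 0.712% lower as deposited.

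**Figure D2:**
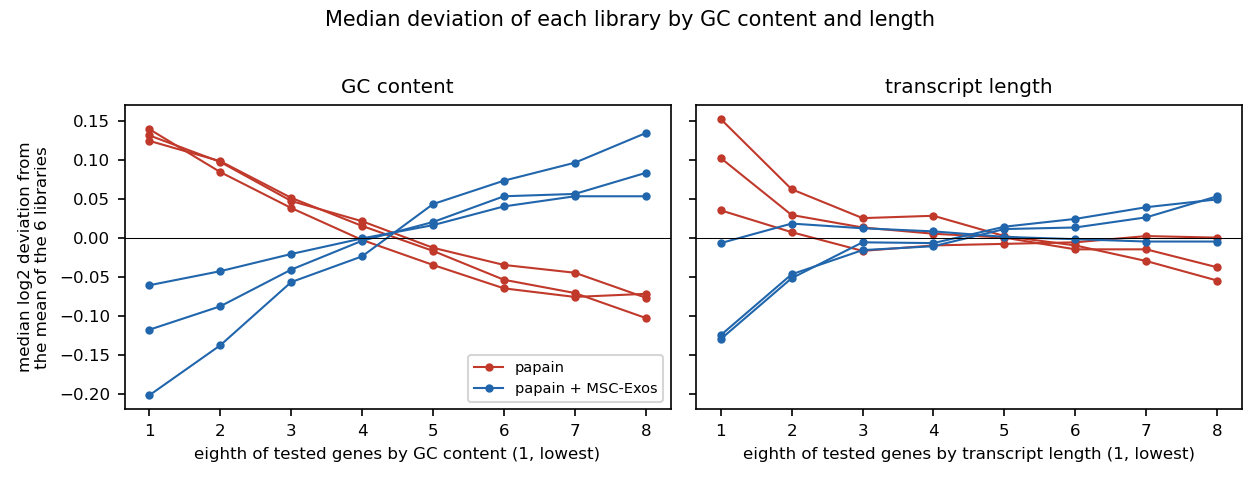
Median log2 deviation of each library from the mean of the 6 (vertical axis) in eighths of the tested genes by GC content (left) and transcript length (right). Papain libraries run from 0.12 to 0.14 in the lowest GC eighth and exosome libraries from -0.20 to -0.06, and the order is turned around in the highest eighth.

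Promoters of 4 genes that stand for the 3 main patterns, 1 that fell with exosomes and 3 that rose, are shown with a motif of the factor family known for each class in capitals. The sequences are those of RefSeq (GRCm38.p6), 5′ to 3′ on the strand of the gene, up to 250 bases before the start of the transcript and outside the annotated gene. Retnla, a gene of alternatively activated macrophages, holds the STAT6-type palindrome, TTC and GAA with 4 bases between them, 78 to 87 bases before the end of the stretch printed. The RefSeq start of Retnla lies 58 bases inside the annotated gene, and those bases are left out. Isg15 holds 3 overlapping copies of the core of the interferon-stimulated response element, GAAA repeated with 2 bases between, from 57 to 78 bases before its start, and Ifit3 holds 2 copies on the opposite strand. Gfy, a gene of olfactory sensory neurons, holds the EBF-type core CCCNNGGG at 34 to 41 bases.

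Retnla (chr16:48842359-48842550, plus strand): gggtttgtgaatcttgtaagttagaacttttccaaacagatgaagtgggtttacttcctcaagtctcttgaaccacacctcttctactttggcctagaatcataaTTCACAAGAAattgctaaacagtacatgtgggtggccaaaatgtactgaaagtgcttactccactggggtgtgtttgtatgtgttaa
Isg15 (chr4:156200819-156201068, minus strand): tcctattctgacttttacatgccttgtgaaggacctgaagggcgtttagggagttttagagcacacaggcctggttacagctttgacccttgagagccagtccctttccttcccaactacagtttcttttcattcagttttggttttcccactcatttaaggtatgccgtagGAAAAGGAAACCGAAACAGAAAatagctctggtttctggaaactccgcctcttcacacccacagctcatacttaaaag
Ifit3 (chr19:34583279-34583528, plus strand): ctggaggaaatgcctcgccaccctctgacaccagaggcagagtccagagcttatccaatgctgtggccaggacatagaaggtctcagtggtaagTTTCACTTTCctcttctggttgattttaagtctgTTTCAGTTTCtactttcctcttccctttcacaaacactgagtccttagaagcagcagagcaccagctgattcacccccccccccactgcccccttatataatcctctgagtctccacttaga
Gfy (chr7:45179598-45179847, minus strand): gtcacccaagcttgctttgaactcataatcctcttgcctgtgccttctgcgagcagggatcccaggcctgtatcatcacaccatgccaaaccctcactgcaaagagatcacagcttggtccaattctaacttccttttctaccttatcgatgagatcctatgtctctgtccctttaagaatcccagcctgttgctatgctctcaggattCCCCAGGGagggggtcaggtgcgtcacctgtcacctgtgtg

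Both strands were searched over the 250 bases before each start, counting a gene once if any of its promoters held a match. The interferon element core was found in 3.2% of the 9871 tested genes with a promoter in the table, and in 15 of the 28 interferon-stimulated genes with a promoter (53.6%). Of the 10 of those genes that were higher with exosomes, 6 held it. CCCNNGGG was found in 18.3% of tested genes and in 9 of 18 genes of mature olfactory neurons and the STAT6-type palindrome in 5.6% of tested genes and in 9 of 46 genes lower on both scales (19.6%). These matches describe the letters of the windows and do not show binding.

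Genes of the type 2 response were among the deepest falls. Chil4 (Ym2), a chitinase-like protein secreted in type 2 inflammation (chromosome 3, 106201490 to 106219507, GRCm38), was at 8210, 5630 and 7380 FPKM in the papain libraries and at 599, 642 and 734 FPKM with exosomes. Untreated libraries held 7.26, 1.71 and 10.9 FPKM. The scaled log2 change was -4.12 ± 0.26 (SE, adjusted p = 0.00156), the groups did not overlap, and the level with exosomes was far above that without treatment. Retnla (chromosome 16), a secreted resistin-like protein of alternatively activated macrophages whose promoter is printed above, stood at 29.4, 21.0 and 9.99 FPKM with papain. With exosomes it was listed at 0 in library 1 and was 0.551 and 0.678 FPKM in the other libraries, a range shared with the untreated tissue (0 to 1.01). Its scaled change was -4.21 ± 0.39 (adjusted p = 0.00865).

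The alternatively activated macrophage list had 5 of 7 tested members lower and 0 higher, with a median log2 change of -1.01 against -0.00 over all genes tested. Chil3 (Ym1), the neighbour of Chil4, was at 36.6, 19.4 and 51.7 FPKM with papain and 6.7, 8.1 and 8.06 FPKM with exosomes (-2.65 ± 0.26, adjusted p = 0.00865). Arg1, the arginase that diverts arginine from nitric oxide, went from 4.48, 2.97 and 4.39 FPKM to 1.31, 1.61 and 1.24 FPKM (-1.51 ± 0.10, adjusted p = 0.00156). The mannose receptor gene Mrc1 was lower by a scaled log2 change of -1.01 (adjusted p = 0.0118). The count was again 5 lower and 0 higher after the GC and length adjustment, and 3 of 6 lower and 0 higher as deposited. Leaving out 1 library left 2 to 5 members lower, with the fewest without papain library 3, where Retnla was not tested. Calls of Chil4, Chil3 and Arg1 held on leaving out any library and that of Retnla on leaving out any exosome library (adjusted p at most 0.0474), while Mrc1 was lost without papain library 3, exosome library 1 or exosome library 2 (at most 0.0589). Chil3 and Chil4 are close copies whose reads may be split between them, so their separate levels are uncertain.

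**Figure D3:**
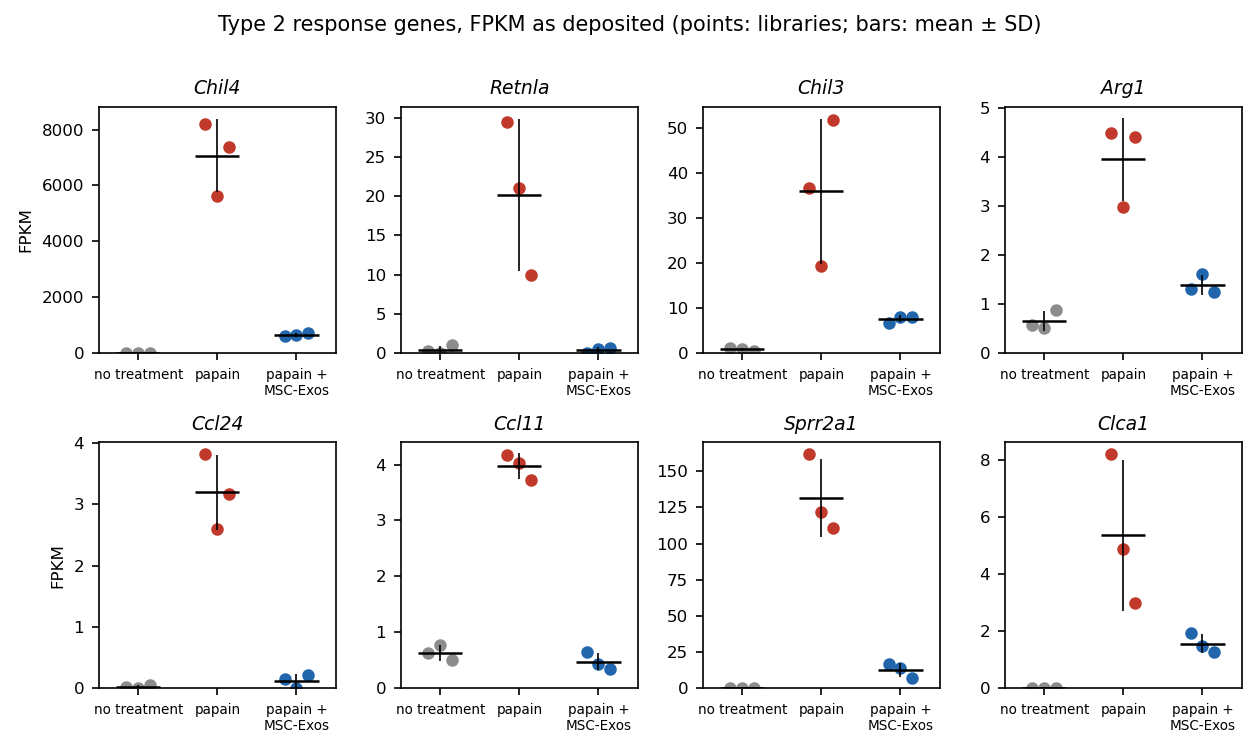
FPKM as deposited (vertical axes, from 0) of 8 type 2 response genes in each library of the 3 groups. Points are libraries, horizontal bars means and vertical bars SD. In each panel the 3 libraries with exosomes lie below the 3 papain libraries, and for Chil4 they stay at 599 to 734 FPKM against at most 10.9 without treatment.

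Chemokines that recruit eosinophils and monocytes fell with them. Ccl24 (eotaxin-2) was at 3.82, 2.59 and 3.17 FPKM with papain and at 0.144, 0 and 0.222 FPKM with exosomes (scaled change -2.19 ± 0.11, adjusted p = 9.02e-04). Ccl11 (eotaxin-1) was at 4.17, 4.03 and 3.72 FPKM against 0.644, 0.443 and 0.34 FPKM (-2.16 ± 0.15, adjusted p = 0.00163). Both eotaxin genes lay within or close to the range of untreated tissue, which was 0 to 0.0565 FPKM for Ccl24 and 0.498 to 0.772 FPKM for Ccl11. Ccl6 and Ccl8, ligands made by macrophages, also fell, Ccl8 from 30.1, 22.7 and 19.9 FPKM to 16.2, 12.6 and 8.31 FPKM (-1.61 ± 0.17, adjusted p = 0.00868) and Ccl6 by 1.46 (adjusted p = 0.00865). In all, 7 of 14 tested CC chemokine genes were lower and 0 higher, or 6 and 0 after the GC and length adjustment. As deposited 6 of 15 were lower and 4 higher. Leaving out 1 library left 1 to 7 lower, the fewest without papain library 3. Both eotaxin genes passed the filter through the papain libraries alone, which favours a fall, so their calls are a description. The eotaxin calls held without each exosome library (adjusted p at most 0.0211), and the eotaxin genes had no value without a papain library. Ccl6 was lost without papain library 3 (0.0554) and Ccl8 without exosome library 2 (0.0528).

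Cytokine genes themselves were low. Il5 and Il13, anchors of the pathway, stayed under the filter and were not tested. Il5 was at 0.679, 0.402 and 1.17 FPKM with papain and 0.16, 0 and 0.152 FPKM with exosomes, and Il13 at 0.6, 0.454 and 0.746 FPKM against 0.137, 0.08 and 0 FPKM. In both genes each exosome library lay below each papain library. The alarmin gene Tslp, another anchor under the filter, overlapped, at 0.337, 0.261 and 0.226 FPKM with papain and 0.157, 0.144 and 0.41 FPKM with exosomes. The epidermal growth factor receptor ligand Areg, made by type 2 lymphoid cells among others, fell from 2.04, 1.21 and 2.08 FPKM to 0.709, 0.938 and 0.609 FPKM (-1.02 ± 0.10, adjusted p = 0.00865, and at most 0.0474 on leaving out any exosome library). Il4 did not pass on the scaled values (0.26 ± 0.13, adjusted p = 0.181), and after the GC and length adjustment it was higher with exosomes (0.98, adjusted p = 0.045). The alarmin gene Il33 was at 26.5, 26.7 and 26.6 scaled FPKM with papain and 25.2, 24.7 and 28.4 scaled FPKM with exosomes (-0.03 ± 0.08, adjusted p = 0.814). As deposited Il4 (0.70, adjusted p = 0.0106) and Il33 (0.655, adjusted p = 0.0239) were higher with exosomes (limma). Of 3 tested type 2 cytokine and alarmin genes 1 was lower and 0 higher. After the GC and length adjustment 1 was lower and 1 higher, and as deposited 1 was lower and 2 higher.

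Among receptors, Il1rl1, which encodes the IL-33 receptor ST2, fell from 1.1, 1.46 and 1.6 scaled FPKM to 0.15, 0.303 and 0.214 scaled FPKM (-0.96 ± 0.12, adjusted p = 0.0108). Il13ra1, a signalling chain of the IL-13 receptor, fell by 0.62 (adjusted p = 0.0134) and Il13ra2, its decoy receptor, by 0.67 (adjusted p = 0.0179). These were the 3 lower of 7 tested receptor and signalling genes, with 0 higher. After the GC and length adjustment the list again had 3 lower and 0 higher, with Il13ra2 no longer called (adjusted p = 0.137), while as deposited 0 of 5 were lower and 1 higher (limma), and on the common sum 0 and 1. On leaving out 1 library Il13ra1 was lost without papain library 3 or exosome library 1 or 2 (adjusted p at most 0.0633) and Il1rl1 without exosome library 1 or 2 (at most 0.0561). Il13ra2 lay at the limit of the filter and had a value in only 1 of these fits, so its call too is a description. Cish, a suppressor induced by cytokine receptors that use STAT5, fell from 5.34, 4.85 and 3.53 scaled FPKM to 1.6, 1.3 and 1.43 scaled FPKM (-1.18 ± 0.14, adjusted p = 0.00956). Without exosome library 2 its adjusted p was 0.0528. Stat3, a transducer of IL-6 family signals, was lower by a change of -0.51 (adjusted p = 0.0139). The list of SOCS, STAT and JAK genes had 4 of 13 lower and 1 higher, the same counts as after the GC and length adjustment. As deposited the balance was the other way, with 1 lower and 6 higher, and on the common sum 0 were lower and 6 higher. Stat3 was lost without papain library 3 or exosome library 1 or 2 (adjusted p at most 0.0655).

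Of the epithelial genes of the IL-13 response and of goblet cells, 8 of 13 tested passed as lower than the median gene and 0 as higher (median -0.74). As deposited 1 was lower and 3 were higher, and on the common sum 1 and 5, so the balance of the list turns with the scale. Clca1, a secreted metalloprotease that shapes mucus, was at 8.22, 4.89 and 2.98 FPKM with papain and at 1.94, 1.5 and 1.26 FPKM with exosomes, and was near 0 in untreated tissue (-1.74 ± 0.27, adjusted p = 0.0138). The mucin disulfide isomerase gene Agr2 went from 393, 380 and 485 scaled FPKM to 157, 176 and 204 scaled FPKM (-1.22 ± 0.15, adjusted p = 0.0104), and the mucus component gene Fcgbp (-0.94, adjusted p = 0.0182) and the lipoxygenase gene Alox15 (-0.74, adjusted p = 0.0127) were lower too. As deposited, Agr2, Fcgbp and Alox15 did not pass (adjusted p = 0.0661, 0.298 and 0.794). The gel-forming mucin gene Muc5ac went against the list: 36.0, 27.0 and 25.3 scaled FPKM with papain and 21.2, 33.7 and 43.4 scaled FPKM with exosomes overlapped (0.11 ± 0.25, adjusted p = 0.773), and as deposited it was higher with exosomes (0.80, adjusted p = 0.00945). Adjusted for GC and length, 6 members were lower. Leaving out exosome library 1 or 2 ended all the lower calls of the list (Clca1 adjusted p up to 0.063, Agr2 up to 0.0578, Fcgbp up to 0.0736 and Alox15 up to 0.0603), and leaving out papain library 3 left 1. With untreated libraries in the fit 4 to 7 members stayed lower on leaving out 1 library.

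Squamous barrier genes fell as far as the macrophage genes. Small proline-rich proteins are cross-linked into the cornified envelope of stressed epithelium. Sprr2a1 was at 162, 122 and 111 FPKM with papain and 16.8, 14.2 and 6.95 FPKM with exosomes (-4.02 ± 0.21, adjusted p = 9.02e-04), against at most 0.384 FPKM without treatment. Sprr2a3 (-4.28 ± 0.27, adjusted p = 0.00156) and Sprr2a2 (-2.44 ± 0.21, adjusted p = 0.00661) fell with it, and the 3 Sprr2a genes are near-identical copies, some of them overlapping, whose separate levels are uncertain. Sprr1a, a single-copy relative, fell from 88.2, 63.2 and 89.5 FPKM to 47.2, 34.8 and 51.1 FPKM (-1.54 ± 0.22, adjusted p = 0.0127). Of 7 tested cornified envelope genes 5 were lower and 0 higher, or 4 and 0 after the GC and length adjustment and again as deposited, and 3 to 5 were lower on leaving out 1 library. Sprr1a was the named member lost, without papain library 3 or exosome library 1 or 2 (adjusted p at most 0.0624).

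The epidermal lipoxygenase gene Alox12e, which like the Sprr2a genes belongs to stressed squamous epithelium, was at 43.0, 24.2 and 22.9 FPKM with papain and 10.1, 12.1 and 5.34 FPKM with exosomes (-2.28 ± 0.23, adjusted p = 0.00865). The serpin gene Serpinb1a, an inhibitor of neutrophil proteases, fell from 30.5, 17.0 and 29.9 FPKM to 14.4, 14.6 and 11.0 FPKM (-1.54 ± 0.11, adjusted p = 0.00177). Neither gene lost its call without any library (adjusted p at most 0.041 and 0.0224). Gsdmc2, a pore-forming gasdermin induced by type 2 cytokines in mucosa, was listed at 0 in the untreated tissue, at 5.39, 2.88 and 1.38 FPKM with papain, and at 0.149, 0 and 0 FPKM with exosomes (-2.18 ± 0.32, adjusted p = 0.0129). It was lost without exosome library 1 or 2 (adjusted p at most 0.0624). Keratin genes of activated basal cells were also lower on the scaled values, Krt14 from 22.6, 35.5 and 27.6 to 11.2, 10.1 and 12.0 scaled FPKM (-1.27 ± 0.16, adjusted p = 0.0105) and Krt6a by 1.26 (adjusted p = 0.0127), as was the basal cell factor gene Trp63 (-0.66, adjusted p = 0.0109). The basal cell and keratin list had 5 of 14 lower and 0 higher, and 6 and 0 after the GC and length adjustment. As deposited 3 were lower and 2 higher, and on the common sum 0 and 5. Each of these 3 genes was lost without papain library 3 or exosome library 1 or 2 (adjusted p at most 0.0624).

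Granule protease genes of mucosal mast cells fell to under 1 FPKM. Mcpt1 was listed at 0 in every untreated library, stood at 9.35, 14.9 and 3.68 FPKM with papain and at 0.231, 0.55 and 0.44 FPKM with exosomes (-3.11 ± 0.49, adjusted p = 0.0138). Mcpt2, a close copy, moved with it (-2.65 ± 0.49, adjusted p = 0.0172). These were the only 2 of 5 tested mast cell and basophil markers called, as also after the GC and length adjustment, while as deposited 2 were lower and 1 higher. Kit, the receptor that defines mast cells, named outside the rule, did not pass (-0.16 ± 0.10, adjusted p = 0.272). Ear2, a ribonuclease of eosinophils that macrophages also make, fell from 7.87, 8.42 and 3.68 FPKM to 1.86, 0.941 and 0.774 FPKM (-2.27 ± 0.33, adjusted p = 0.0127). It has near-identical copies, so its level is uncertain, as is the level of each mast cell protease gene.

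Other eosinophil markers could not be compared: 9 of the 11 listed were under the filter, and of the 2 tested 1 was lower, also after the GC and length adjustment (1 lower and 1 higher as deposited). Epx, the eosinophil peroxidase gene, was at most 0.00887 FPKM in all 6 libraries. Prg2, the major basic protein gene, was at 0.922, 0.829 and 0.718 FPKM with papain and 0.513, 0.457 and 0.425 FPKM with exosomes, and Siglecf at 0.195, 0.119 and 0.322 against 0.808, 0.635 and 0.254 FPKM. The summed FPKM of the 11 eosinophil genes was 11.2, 10.3 and 6.75 with papain and 6.93, 4.88 and 3.37 with exosomes. Of these sums Ear2 alone gave 7.87, 8.42 and 3.68 FPKM with papain and 1.86, 0.941 and 0.774 FPKM with exosomes. The lower sum therefore does not speak for the other markers. In bulk tissue fewer cells of a type and less RNA per cell cannot be told apart. Mcpt1, Mcpt2 and Ear2 were each lost without exosome library 1 or 2 (adjusted p at most 0.0651, 0.0736 and 0.0616), and in the fit with untreated libraries they held on leaving out any exosome library (at most 0.0216).

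Markers of other immune cells held few calls on the scaled values. Of 13 tested monocyte and macrophage markers the Fc receptor gene Fcgr1 was higher (0.44, adjusted p = 0.0486) and the chemokine receptor gene Ccr2 lower (-0.70, adjusted p = 0.0216), of 8 neutrophil markers Retnlg was lower (-1.02, adjusted p = 0.0145), and of 3 T and NK cell and 5 B and plasma cell markers 0 were called (limma). The summed FPKM of the T and NK cell list was 6.95 to 11.5 with papain and 9.82 to 16.4 with exosomes. With GC and length adjusted for, none of these 4 lists held a called member. As deposited 10 monocyte and macrophage markers, 2 of 9 neutrophil markers and 1 T and NK cell marker were higher, and 1 of 4 B and plasma cell markers was lower. The scaled changes of the B and plasma cell markers ran from -1.83 to -0.14 (median -0.59). The Fcgr1 call ended on leaving out any 1 library, those of Ccr2 and Retnlg without papain library 3 or exosome library 1 or 2, and that of Ccr2 also without papain library 2.

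In contrast to the type 2 genes, genes induced by interferon were higher with exosomes. Of 37 tested interferon-stimulated genes 15 were higher and 0 lower, with a median change of 0.46. Isg15, a ubiquitin-like modifier whose promoter is printed above, was at 7.53, 10.9 and 7.29 scaled FPKM with papain and 19.4, 19.4 and 16.1 scaled FPKM with exosomes (1.03 ± 0.15, adjusted p = 0.0134). Oasl2, of the oligoadenylate synthetase family of viral RNA sensors, went from 10.1, 13 and 8.03 to 23.6, 24.5 and 20.1 scaled FPKM (1.08 ± 0.16, adjusted p = 0.0134). Ifit3, which binds foreign RNA, went from 7.18, 10.7 and 7.06 to 19.1, 18.9 and 14.5 scaled FPKM (1.0 ± 0.17, adjusted p = 0.0152), with its close copy Ifit3b at 0.84 (adjusted p = 0.0158). In none of these 4 genes did the groups overlap, on either scale, beside 2646 of all 12526 tested genes with the same order on the scaled values.

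Interferon genes themselves gave no such reading. Of 15 genes of interferons and their receptors 6 were listed at 0 in all 6 libraries, and 6 were tested, of which 1, the receptor gene Ifngr1 (chosen after its value was seen), was lower (-0.46, adjusted p = 0.0196). After the GC and length adjustment 1 was again lower, and as deposited 0 were lower and 3 higher (limma). It was not called without papain library 3 or exosome library 1 or 2 (adjusted p at most 0.0774). As deposited, Isg15 was at 3.45, 4.44 and 4.28 FPKM without treatment, 7.05, 6.68 and 6.16 FPKM with papain and 29.4, 26.6 and 16.5 FPKM with exosomes, so the exosome libraries lay above both other groups. After the GC and length adjustment 9 interferon-stimulated genes were higher and 0 lower, Isg15 among them (1.31, adjusted p = 0.0145), and as deposited 36 were higher and 0 lower. Leaving out papain library 1 left 9 genes higher, and leaving out papain library 3 or exosome library 1 or 2 ended every call of the list in the fit of the 6 libraries (Isg15 and Oasl2 adjusted p at most 0.0624, Ifit3 0.0679 and Ifit3b 0.0684), while with untreated libraries in the fit 10 to 23 genes were higher on leaving out any library.

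Genes of mature olfactory sensory neurons were mostly higher. Of 22 tested, 19 were higher and 0 lower, with a median change of 1.09 and a range from 0.13 to 2.27. Kirrel2, an adhesion protein that sorts olfactory axons and follows neuronal activity, was at 7.89, 5.45 and 6.2 scaled FPKM with papain and 52.0, 36.8 and 22.3 scaled FPKM with exosomes (2.27 ± 0.28, adjusted p = 0.0105), the largest rise among the genes named by size. Gfy, a Golgi protein needed for odorant signalling, went from 71.9, 35.6 and 48.1 to 169, 206 and 122 scaled FPKM (1.68 ± 0.28, adjusted p = 0.0145). Omp, the olfactory marker protein gene, went from 239, 128 and 166 to 396, 538 and 294 scaled FPKM (1.2 ± 0.28, adjusted p = 0.0273).

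Genes of the odorant transduction cascade were higher with them. The channel subunit genes Cnga4 (1.16 ± 0.23, adjusted p = 0.0189) and Cngb1 (1.42 ± 0.36, adjusted p = 0.0332), the chloride channel gene Ano2 (1.55 ± 0.31, adjusted p = 0.0196) and the calcium exchanger gene Slc24a4 (0.64 ± 0.10, adjusted p = 0.0139) were higher, as was the potassium channel subunit gene Kcnmb3 (1.45 ± 0.25, adjusted p = 0.0155). In Cnga4 the scaled values were 11.3, 6.98 and 9.62 with papain and 21.8, 28.8 and 16.1 with exosomes. Papain library 2 was lowest and exosome library 3 lowest of its group in both Omp and Cnga4, the same libraries that stood apart in the secretory share. The summed FPKM of the 22 genes as deposited was 1050, 370 and 690 with papain and 2630, 2850 and 1340 with exosomes. Part of this difference is the general shift of the deposited scale given above.

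Omp and Kirrel2 also stood above untreated tissue on the deposited scale, on which most genes were higher with exosomes than with papain. As deposited, Omp was at 213, 257 and 177 FPKM without treatment, 224, 78.5 and 140 FPKM with papain and 600, 739 and 302 FPKM with exosomes, and Kirrel2 at 18.7, 22.2 and 16.9, then 7.4, 3.34 and 5.25, then 78.7, 50.5 and 22.9 FPKM. The exosome libraries lay above the untreated ones in both genes, on the deposited scale. After the GC and length adjustment 10 of the 22 were higher and 0 lower (as deposited all 22 were higher), with Omp (adjusted p = 0.0554) and Cngb1 (0.0713) no longer called. Without papain library 2 the count fell to 6, and without papain library 3, exosome library 1 or exosome library 2 to 0, 1 and 0, since adjusted p reached 0.0554 for Kirrel2, 0.0656 for Gfy, 0.0945 for Omp (lost also without papain library 2), 0.0765 for Cnga4, 0.11 for Cngb1, 0.0773 for Ano2, 0.063 for Slc24a4 and 0.0673 for Kcnmb3. With untreated libraries in the fit 16 to 21 members were higher on leaving out any library.

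**Figure D4:**
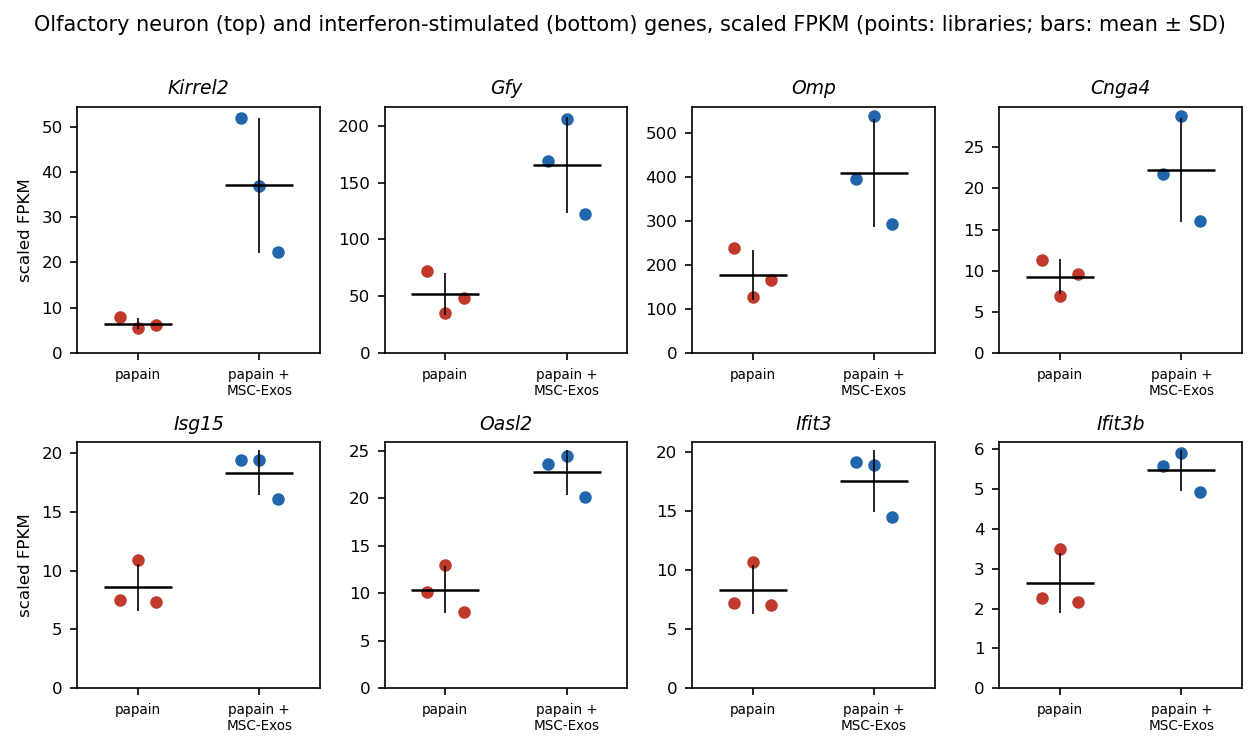
Scaled FPKM (vertical axes, from 0) of 4 olfactory neuron genes (top) and 4 interferon-stimulated genes (bottom) in the 3 papain and 3 papain plus exosome libraries. Points are libraries, horizontal bars means and vertical bars SD. No panel has overlapping groups.

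Odorant receptor genes are each expressed by few neurons and were near the lower limit of the data. Among 1135 listed, 114 were tested on the scaled values, and 17 were higher and 2 lower, beside 10.3% and 12.7% of all genes tested. Olfr727 was at 1.98, 0.271 and 0.541 FPKM with papain and 8.43, 4.67 and 5.37 FPKM with exosomes, against 9.44, 11.8 and 9.28 FPKM without treatment (scaled change 1.54 ± 0.30, adjusted p = 0.0184). Olfr15 (1.08, adjusted p = 0.0138) and Olfr169 (0.88, adjusted p = 0.0104) were higher too. In all 3 each exosome library lay above each papain library. Olfr15 and Olfr169 were under 1 FPKM in every papain library and passed the filter through the exosome libraries alone, which favours a rise, so that these calls are a description. On the scaled values this also holds for Olfr1347, Olfr195, Olfr180, Olfr53, Olfr741 and Olfr1228 among the 17. The count of 17 therefore leans toward rises and is not a fair match for the share of all genes. Receptor transcripts are poor in GC (median 37.8% against 49.7% of all tested genes), and after the GC and length adjustment 28 were higher and 0 lower. As deposited 71 of 143 were higher and 0 lower, where 51.6% of all genes tested were higher, so this count is close to that of all genes. Without papain library 2 the scaled count was 7 higher, without exosome library 3 it was 10, without papain library 1 it was 27, and without any of the other libraries it was 0. Calls of Olfr15 and Olfr169 were lost without papain library 3 (adjusted p = 0.0574 and 0.0554) and that of Olfr727 without papain library 3 or exosome library 1 or 2 (at most 0.0767).

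Immature neurons and supporting cells held fewer calls, a difference between lists that was not tested. Of 15 tested genes of olfactory progenitors and immature neurons 1 was higher and 2 were lower (median 0.29), Tex15 among the lower (-1.03 ± 0.11, adjusted p = 0.0095). Without papain library 1 there were 5 higher, or 7 with untreated libraries in the fit. Tex15 was lost without papain library 3 or exosome library 2 (adjusted p at most 0.0554). Of 13 sustentacular cell genes, which mark the cells that support and detoxify around the neurons, 1 was higher: Sec14l3, a lipid transfer protein gene, went from 179, 136 and 150 to 325, 323 and 255 scaled FPKM (0.95 ± 0.15, adjusted p = 0.0138). Xenobiotic metabolism genes, highly expressed in the same cells, had 4 of 21 higher and 0 lower, with the flavin monooxygenase gene Fmo2 at 0.60 ± 0.09 (adjusted p = 0.0127) and the glutathione transferase gene Gstm1 at 0.52 ± 0.10 (adjusted p = 0.0168). After the GC and length adjustment these lists had 0 higher and 2 lower, 1 higher, and 3 higher. As deposited 10 of 15 progenitor and immature neuron, 7 of 13 sustentacular and 15 of 21 xenobiotic metabolism genes were higher and 0 lower. Of all genes tested 51.6% were higher on that scale. Sec14l3, Fmo2 and Gstm1 were lost without papain library 3 or exosome library 1 or 2 (adjusted p at most 0.0651, 0.0624 and 0.0717).

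Peptide genes of neurons and endocrine cells split by type. The granin genes Chga and Chgb, which build dense-core granules, were higher: Chga went from 42.7, 23.6 and 31.6 to 107, 106 and 79.1 scaled FPKM (1.58 ± 0.22, adjusted p = 0.0127), and Chgb rose by 0.93 (adjusted p = 0.0132). The neuropeptide genes of sensory irritation were lower. Tac1, the substance P precursor, fell from 4.18, 2.29 and 2.83 FPKM to 1.13, 0.998 and 0.821 FPKM (-1.46 ± 0.11, adjusted p = 0.00234) and Calca, the calcitonin gene-related peptide precursor, from 2.38, 1.55 and 1.03 FPKM to 0, 0.129 and 0.128 FPKM (-1.50 ± 0.19, adjusted p = 0.0111). Untreated tissue held 1.59, 1.02 and 2.05 FPKM of Tac1 and at most 0.0646 FPKM of Calca. Of 9 tested members 3 were higher and 3 lower, and the counts were the same after the GC and length adjustment, with 5 higher and 2 lower as deposited. Tac1 held on leaving out any exosome library (adjusted p at most 0.0277), and the other calls were lost for Chga without papain library 3 or exosome library 1 or 2 (0.0603), for Chgb without papain library 3 (0.0559) and for Calca without exosome library 1 or 2 (0.0582). Chgb passed the filter through the exosome libraries alone, which favours a rise, so its call is a description.

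Other large rises among the genes named by size were Rasgrp4 (1.76 ± 0.28, adjusted p = 0.0138), a Ras activator known from mast cells, the synaptotagmin gene Syt7 (1.48 ± 0.29, adjusted p = 0.0189), the neuronal elongation factor gene Eef1a2 (1.47 ± 0.20, adjusted p = 0.0127) and Xntrpc (1.39 ± 0.33, adjusted p = 0.0285), a read-through locus that overlaps the vomeronasal channel gene Trpc2, so that its own level is uncertain. Rasgrp4 went from 1.69, 0.522 and 1.24 FPKM to 17.1, 8.03 and 5.08 FPKM, the opposite direction to the mast cell protease genes. Each of these 4 calls was lost without papain library 3 or exosome library 2 (adjusted p at most 0.061, 0.0772, 0.0603 and 0.103), those of Syt7, Eef1a2 and Xntrpc also without exosome library 1, and that of Xntrpc also without exosome library 3.

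Some secreted defence proteins of the epithelium were higher with exosomes. Lcn2, a siderophore-binding lipocalin, was at 184, 167 and 337 scaled FPKM with papain and 598, 467 and 377 with exosomes (1.11 ± 0.29, adjusted p = 0.0347), and Saa3, an acute-phase serum amyloid, was at 1.21, 4.51 and 11.1 against 17.2, 20.6 and 15.7 scaled FPKM (1.83 ± 0.53, adjusted p = 0.0461). The list of acute-phase and antimicrobial genes had 3 of 13 higher and 0 lower, and 9 and 0 as deposited. Neither named gene passed after the GC and length adjustment (adjusted p = 0.0542 and 0.0617), where 1 member was higher. Lcn2 was lost on leaving out any library but exosome library 3 (adjusted p up to 0.118) and Saa3 on leaving out any but papain library 1 (up to 0.127). Of the gland products, the secretoglobin genes Scgb1b27 (-2.60 ± 0.66, adjusted p = 0.0329) and Scgb2b27 (-2.21 ± 0.54, adjusted p = 0.0298) fell; Scgb1b27 was at 505, 1260 and 616 FPKM with papain and 116, 172 and 381 FPKM with exosomes. Both have close copies, were lost without papain library 2 or 3 or exosome library 1 or 2 (adjusted p at most 0.111 and 0.104), and did not pass after the GC and length adjustment (0.0576 and 0.0503).

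The 7 odorant-binding lipocalins had changes of -1.89 to -0.75 and 0 calls on the scaled values and after the GC and length adjustment (limma). As deposited 5 were lower, and on the scaled values 4 were lower without exosome library 3. Obp1a, an abundant one named outside the rule, was at 78000, 85900 and 68300 FPKM with papain and 28900, 37300 and 67300 FPKM with exosomes (scaled adjusted p = 0.141, unadjusted p = 0.06). Exosome library 3 lay close to papain library 3.

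Genes of protein folding in the secretory pathway were lower relative to the median gene. The unfolded protein response list had 10 of 19 lower and 0 higher (median -0.51) on the scaled values. Xbp1, its central transcription factor, went from 134, 172 and 158 to 80.8, 69.8 and 83.1 scaled FPKM (-0.97 ± 0.13, adjusted p = 0.0113), Hspa5, the chaperone BiP, from 141, 144 and 152 to 89.8, 81.1 and 93.3 (-0.72 ± 0.10, adjusted p = 0.0121) and Manf, a stress-induced secreted factor, from 48.0, 48.5 and 50.8 to 29.9, 25.4 and 28.5 (-0.79 ± 0.09, adjusted p = 0.0095). As deposited 0 of the 19 were lower and 2 higher (limma; Xbp1, Hspa5 and Manf had log2 changes of -0.27, -0.02 and -0.10). Adjusted for GC and length, 6 were lower and 0 higher. Without papain library 3, exosome library 1 or exosome library 2 the list kept 0, 1 and 0 calls, with adjusted p up to 0.0589 for Xbp1, 0.061 for Hspa5 and 0.0554 for Manf.

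Immediate early and clock genes were lower on the same scale. Of 13 immediate early genes, which respond within minutes to stimulation or handling, 6 were lower and 0 higher on the scaled values, with Junb, an AP-1 subunit, at 27.2, 20.7 and 27.8 scaled FPKM with papain and 15.9, 9.96 and 9.02 with exosomes (-1.08 ± 0.21, adjusted p = 0.0184). Of 14 circadian clock genes 4 were lower and 1 higher. The lower genes were the output factor gene Dbp (-1.30 ± 0.26, adjusted p = 0.0197), the repressor genes Nr1d1 (-1.03 ± 0.21, adjusted p = 0.0197) and Nr1d2 (-0.96 ± 0.15, adjusted p = 0.0138), and Ciart (-0.79 ± 0.13, adjusted p = 0.0138), which peak together in the daily cycle. Dbp was at 14.6, 17.5 and 20.7 FPKM with papain, 9.53, 11.2 and 11.9 FPKM with exosomes and 19.6, 21.9 and 18.2 FPKM without treatment. The hour at which tissue was taken was not stated in the labels, and its part in these results was not tested. The GC and length adjustment left 5 immediate early and 4 clock genes lower. As deposited 0 immediate early genes were lower and 1 higher, and 1 clock gene was lower and 5 higher. No more than 3 immediate early genes stayed lower on leaving out any library, and without papain library 3 or exosome library 2 both lists held 0 lower members. Junb was lost without papain library 3 or exosome library 2 (adjusted p at most 0.0704), Dbp and Nr1d2 without papain library 3 or exosome library 1 or 2 (0.0765 and 0.0624), Nr1d1 also without papain library 2 (0.0719) and Ciart without exosome library 1 or 2 (0.0651).

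Some broad falls moved with base composition and length. Nuclear-encoded genes of oxidative phosphorylation, which are short, had 14 of 35 lower and 0 higher on the scaled values but 1 lower after the GC and length adjustment. Mitochondrially encoded genes, with a median GC content of 37.1%, had 2 of 13 lower and then 0, their median moving from -0.66 to -0.04, and 12 were lower on the scaled values without exosome library 3. Cytosolic ribosomal protein genes had 8 of 20 lower and then 4. As deposited 0 oxidative phosphorylation and 0 ribosomal protein genes were lower, and 10 and 4 were higher (limma).

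Remodelling genes gave little. Of 27 tested matrix and remodelling genes 7 were lower and 1 higher, and 6 and 1 after the GC and length adjustment. The direction turned with the scale: of 26 tested on the deposited values 5 passed as higher and 0 as lower, and on the common sum 9 and 0 (limma). Postn, a matrix protein induced by IL-13, was at 47.1, 42.7 and 47.3 scaled FPKM with papain and 38.7, 32.9 and 25.9 with exosomes (-0.50 ± 0.14, adjusted p = 0.0456), and lost its call on leaving out any library (adjusted p up to 0.127) and after the GC and length adjustment (0.229). As deposited its groups overlapped (0.20, adjusted p = 0.489). Col1a1, the type I collagen gene, and Tgfb1, the fibrosis-associated growth factor gene, did not pass (scaled changes -0.21 ± 0.38 and -0.03 ± 0.13, adjusted p = 0.709 and 0.901).

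**Figure D5:**
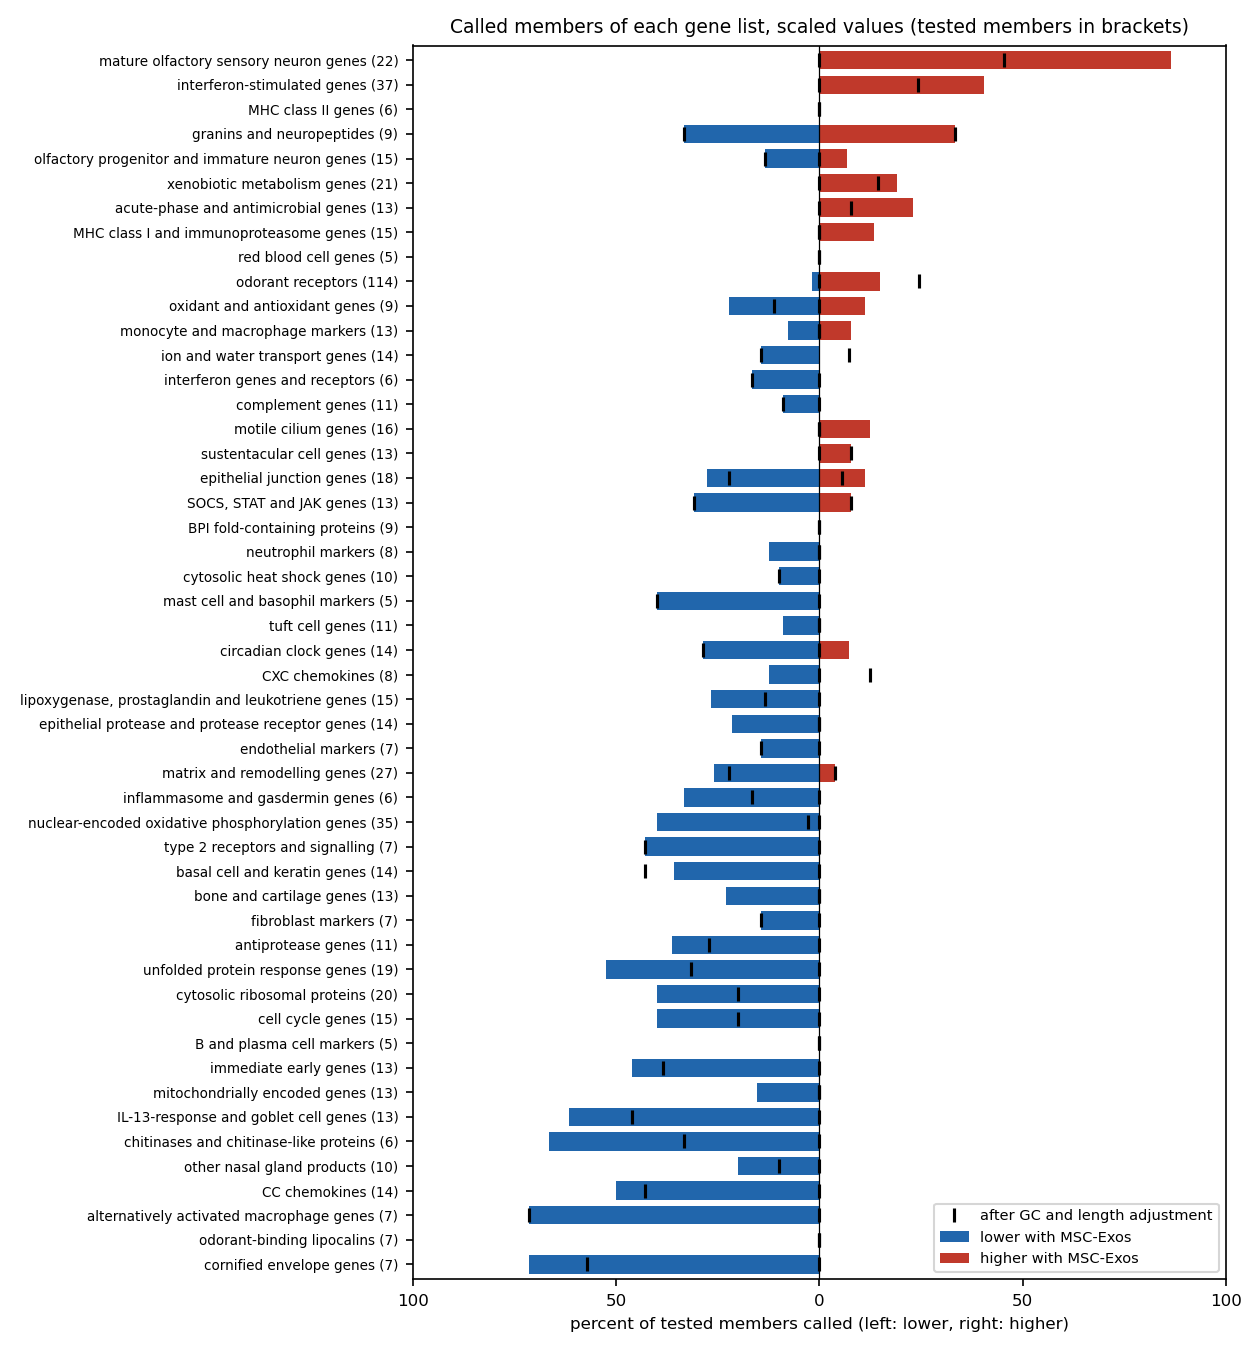
Percent of the tested members of each gene list (tested members in brackets, lists of at least 5) called lower (left, blue) or higher (right, red) with exosomes on the scaled values. Black ticks give the same percent after the GC and length adjustment, and lists are ordered by their median log2 change. Olfactory neuron and interferon-stimulated genes are at the top. Cornified envelope genes, odorant-binding lipocalins (0 called) and alternatively activated macrophage genes are at the bottom.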

How the data were processed

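Bulk RNA was sequenced from the nasal mucosa of mice in 9 libraries, 3 a group, and 1 table of FPKM per gene was deposited. Per the submitters' processing notes, fastp 0.19.4, HISAT2, StringTie and the build mm10 were used. Annotation, strandedness and the other versions were not given in the sources used here. The FPKM values are relative to all fragments of a library and were used as the authors deposited them. FPKM rescaled here to a common sum (TPM) served in 1 alternative. No counts were used: low FPKM values in single-transcript genes lay within 0.05 of whole fragments in 17.8% to 23.9% of cases, against 10.0% for an even spread, so whole reads were not recovered, and the rough depth these steps give is 15.4 to 25.0 M fragments (M, mega).

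From the FPKM, log2(value + 1) was fitted with limma 3.58.1 (R 4.3.3; mean-variance trend, 4 residual degrees of freedom) on the 6 libraries, with Benjamini-Hochberg adjustment over all genes tested and a threshold of 0.05, as deposited and after median-of-ratios scaling. A gene had to reach 1 FPKM in at least 3 libraries, also where a library was left out. In simulated data of 12526 genes made for this comparison, 82 of 100 genes changed 2-fold and 97 of 100 changed 4-fold were called, with 19 unchanged genes called. The simulated noise was independent for each gene, with no deviation shared within a library and no trend on GC content. These rates may therefore not carry over to the data. Of 21930 identifiers 21817 had a symbol. Genes were named where they were among the 12 largest rises or falls called and not overlapping on both scales with at least 2 FPKM in the higher group, among the up to 4 members of smallest p in a list, or anchors of the pathway; of these, those described were chosen after their values were seen. The members and lists were chosen with earlier results of these data known. Lists are described by counts and medians, with no test of the list.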

Additional observations from a re-analysis of the deposited data

How the results depend on the processing

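Of the 2882 scaled calls, 934 were kept after the GC and length adjustment, 1321 on a common sum outside the 3 secretory lists, 2400 under quantile normalization and 1238 with the replicate block. Without papain library 3, exosome library 1 or exosome library 2 only 17, 80 and 22 were kept. The 1290 genes higher and 1592 lower on the scaled values became 779 and 1052 with no filter, 92 and 97 with a log2 change of at least 1, 7830 and 46 on the common sum, and 545 and 604 after the GC and length adjustment. As deposited, 6522 higher and 90 lower became 3611 higher with no filter, 3736 and 56 with a filter at 5 FPKM, 1114 and 38 with a log2 change of at least 1, and 42 lower in TPM. On both scales, 1290 higher and 64 lower became 779 higher with no filter, 38 lower with the filter at 5, and 92 and 26 with a log2 change of at least 1.

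Leaving out 1 library gave 1 to 1284 genes higher and 16 to 1701 lower on the scaled values, 1867 to 8290 and 51 to 105 as deposited, and 1 to 1268 and 13 to 83 on both scales. With untreated libraries in the fit, an alternative chosen after seeing the data, as was the GC and length adjustment, it gave 692 to 1642 higher (760 without exosome library 2) and 1055 to 2221 lower. The secretory share difference of -6.62 percentage points ranged from -9.67 to -4.51.

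The replicate numbers are shared between groups by name alone: same-numbered libraries deviated together with correlations of 0.15, -0.34 and 0.01, and not every library correlated best with its own number. With the replicate block 552 genes were higher and 729 lower on the scaled values, and 551 were higher on both scales.

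On the common sum these changes took the opposite sign: Il33 0.89, Postn 0.43, Col1a1 0.73, Tgfb1 0.74, Il13ra1 0.28, Alox15 0.15, Stat3 0.39, Manf 0.13, Hspa5 0.22, Trp63 0.059 and Ifngr1 0.42. Another 16 named falls lost their call there: Ccl6, Mrc1, Agr2, Fcgbp, Sprr1a, Cish, Xbp1, Krt14, Krt6a, Serpinb1a, Junb, Nr1d1, Nr1d2, Dbp, Ciart and Tex15 (adjusted p 0.073 to 0.929). The sign also turned for Il33 (0.10) and Col1a1 (0.077) under quantile normalization and Il33 (0.23) and Muc5ac (-0.20) after the GC and length adjustment. Leaving out 1 library moved Il33 between -0.089 and 0.005, Muc5ac between -0.11 and 0.38, Col1a1 between -0.50 and 0.23 and Tgfb1 between -0.12 and 0.091. With untreated libraries in the fit the sign turned for Il33 (0.001, without exosome library 2), Muc5ac (-0.13, exosome library 3), Col1a1 (0.22, exosome library 3) and Tgfb1 (0.043, papain library 3, and 0.078, exosome library 3). None of these 4 genes passed the test on the scaled values. The cause was not tested. Depth is known only roughly, so no counting error is given for genes near 0.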
